A study of Homo sapiens with 6 samples.

Results

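The genes described here are the aminoacyl-tRNA synthetases of the cytosol and of mitochondria, with the scaffold proteins AIMP1 and AIMP2 that hold several cytosolic synthetases together. They were chosen by symbol from a list of 36 genes, 20 cytosolic and 16 mitochondrial, a symbol ending in the digit 2 marking the mitochondrial class, apart from AIMP2, which counts as cytosolic. Of these, 33 of the 19775 genes on the array had a probe set with that symbol alone, 18 of them cytosolic and 15 mitochondrial. QARS1, AIMP2 and TARS2 were not analysed here. All 33 were bright enough to be tested, each through its probe set with the highest mean.

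An aminoacyl-tRNA synthetase joins one amino acid to the tRNAs that decode it, so the set as a whole supplies both protein synthesis systems of the cell. In human cells the cytosol and the mitochondria mostly use separate nuclear genes for this. GARS1 and KARS1 are known exceptions that make both forms, and EPRS1 carries the glutamate and the proline enzyme in one chain, so the symbol is only an approximate guide to the compartment. Many cytosolic synthetase genes are known targets of ATF4, the transcription factor that the cell makes when amino acids run short or when kinases of the initiation factor eIF2 are active.

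The cells were A375, a human melanoma line with an activated BRAF kinase. In all 6 samples the gene for eIF4B, a cofactor of the helicase that opens mRNA for translation, had been disrupted by CRISPR. Cells called KO/LacZ then received LacZ by lentivirus and are the knockout line, and cells called KO/eIF4B received wild-type eIF4B and are the rescued line. Each of these 2 lines was given 10 µM vemurafenib, an inhibitor of mutant BRAF, for 6 h or 18 h, or DMSO vehicle, with 1 Affymetrix array per combination. The labels give no duration for the vehicle, so time in culture and drug cannot be told apart, and nothing in them tells if the 6 arrays stand for independent cultures. P-values thus cover no more than the spread seen among these arrays, which may be technical.

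Levels are log2 of the deposited RMA intensity, and a difference of 1 log2 unit is 2-fold. Drug effects were tested over the 13506 genes whose mean reached 5 log2 units, in an additive limma model of line and treatment, and a gene was called at a Benjamini-Hochberg adjusted p below 0.05. The error in that model is the disagreement between the lines, so a gene that responds in one line alone is penalised. The array medians lay between 5.20 and 5.22. EIF4B itself read 8.40 to 8.53 in KO/LacZ cells and 10.07 to 10.28 in KO/eIF4B cells on its brightest probe set. There the knockout minus rescued difference over the treatments was -1.68. On its dimmer probe sets that difference was 0.19 and 0.17, so the lower EIF4B reading in the knockout line rests on 1 probe set. Of the melanoma markers, SOX10 read 9.86 to 10.57 and S100B 7.42 to 8.44, whereas MLANA (4.76 to 4.99) and TYRP1 (3.43 to 3.80) were too dim to be tested. MITF rose by 1.01 at 6 h and 1.63 at 18 h, S100A1 rose by 0.28 at 18 h, and SOX10 fell by 0.63 at 6 h. The 8 measured melanoma genes summed to 51.9, 52.5 and 54.4 in KO/LacZ cells under vehicle, then 6 h, then 18 h, and to 52.8, 52.9 and 53.8 in KO/eIF4B cells. Epithelial EPCAM (2.32 to 2.73) and CDH1 (2.94 to 3.24) and the blood cell marker PTPRC (2.92 to 3.17) were dimmer still, whereas epithelial KRT18 read 11.70 to 12.75 and fell by 0.78 at 18 h. Of 3 measured blood cell genes, LYZ read 6.06 to 7.15 and fell by 0.86 at 18 h and CD3E read 5.68 to 5.85. In the fibroblast list of 5 genes, DCN and LUM rose with the drug, COL1A1 changed by 0.02 at 18 h, and COL1A2 and PDGFRA were below the limit for testing; the list's summed log2 level was 28.8, 31.1 and 33.5 in KO/LacZ cells (vehicle, 6 h, 18 h) and 30.1, 31.5 and 34.6 in KO/eIF4B cells. Of the 6 epithelial genes 4 were tested, of which 2 rose and 1 fell at 18 h, and the list summed to 41.8 to 42.7 in KO/LacZ cells and 40.8 to 42.0 in KO/eIF4B cells. What part these markers have in the results was not tested. In bulk RNA a change in the cells present and a change in RNA per cell cannot be told apart.

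In a window of 250 bases before to 50 bases after the annotated start, taken from RefSeq (GRCh38.p14) and found for 31 of the 36 members, 6 of 17 cytosolic genes and 1 of 14 mitochondrial genes held TGATGNAA, the composite element that ATF4 binds together with a C/EBP partner (both strands searched). Of all 27305 genes with a window, 4.46% held it. These matches are shown because ATF4 is a known regulator of this family; each line gives the gene's strand, 5′ to 3′, with the match in capitals and its position counted from the start site.
AARS1 (chr16:70289675-70289704, minus strand, match at -187): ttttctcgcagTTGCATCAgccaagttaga
CARS1 (chr11:3057407-3057436, minus strand, match at -2): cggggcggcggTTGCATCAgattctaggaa
GARS1 (chr7:30594834-30594863, plus strand, match at -33): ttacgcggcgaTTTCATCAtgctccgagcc
IARS1 (chr9:92293692-92293721, minus strand, match at -13): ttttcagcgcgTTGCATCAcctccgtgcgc
NARS1 (chr18:57621804-57621833, minus strand, match at 15): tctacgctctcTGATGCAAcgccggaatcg
TARS1 (chr5:33440956-33440985, plus strand, match at 3): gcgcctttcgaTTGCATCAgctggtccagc
YARS2 (chr12:32756076-32756105, minus strand, match at -197): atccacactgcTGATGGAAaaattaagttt
LARS1, VARS1, YARS1, AARS2 and VARS2 had no window. The E-box CACGTG was found for 2 of 17 cytosolic and 3 of 14 mitochondrial genes (8.77% of all genes), and the AP-1 element TGANTCA for 0 of either class (9.37% of all genes). No match of one motif overlapped a match of another in these genes. A match is a run of letters and no evidence of binding.

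After 18 h of vemurafenib cytosolic synthetase genes had moved in both directions. Of 18 members 7 rose, namely WARS1, SARS1, AARS1, EPRS1, CARS1, LARS1 and IARS1, by 0.48 to 0.96 log2 units. Another 6 fell, namely FARSA, FARSB, HARS1, AIMP1, VARS1 and RARS1, with changes of -0.58 to -0.23 log2 units. The other 5 did not pass the test. Over all genes tested 28.1% were called higher and 23.3% lower at 18 h, so 7 and 6 of 18 are near that broad background. The median change was 0.23 in this class and 0.01 over all genes.

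WARS1, which charges tryptophan tRNA and is also known as an interferon-induced gene, read 9.63, 9.90 and 10.26 in KO/LacZ cells (vehicle, 6 h, 18 h) and 9.64, 10.21 and 10.94 in KO/eIF4B cells. SARS1, the serine enzyme, read 10.55, 10.84 and 11.25 in KO/LacZ cells and 10.56, 11.21 and 11.71 in KO/eIF4B cells. For both genes the vehicle arrays of the 2 lines were within 0.01 of each other and every treated array lay above them. The 18 h change was 0.96 for WARS1 (SE 0.16, 1.95-fold, limma, Benjamini-Hochberg adjusted p = 0.0053) and 0.93 for SARS1 (SE 0.12, 1.90-fold, adjusted p = 0.0025).

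AARS1, the alanine enzyme, read 10.09, 10.65 and 10.71 in KO/LacZ cells and 10.29, 11.11 and 11.39 in KO/eIF4B cells. Here the knockout line gained almost all of its rise by 6 h. The 18 h change was 0.86 (SE 0.12, limma, Benjamini-Hochberg adjusted p = 0.0033). CARS1, the cysteine enzyme, read 10.78, 11.05 and 11.11 in KO/LacZ cells and 10.71, 11.36 and 11.51 in KO/eIF4B cells, a change of 0.57 (SE 0.12, adjusted p = 0.014). Its treated arrays again lay above both vehicle arrays. The CARS1 call was lost without the rescued vehicle array (0.36, adjusted p = 0.057) and without the rescued 18 h array (0.43, adjusted p = 0.078).

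EPRS1, LARS1 and IARS1 belong to the multisynthetase complex, a cytosolic particle in which several synthetases are held together by AIMP scaffolds. EPRS1 read 10.39, 10.69 and 10.82 in KO/LacZ cells and 10.27, 10.78 and 11.07 in KO/eIF4B cells, a change of 0.62 (SE 0.10, limma, Benjamini-Hochberg adjusted p = 0.005). LARS1, the leucine enzyme and a known leucine sensor for mTORC1, read 10.45, 10.76 and 10.92 in KO/LacZ cells and 10.45, 10.72 and 11.01 in KO/eIF4B cells, a change of 0.51 (SE 0.06, adjusted p = 0.0022). The lines were close together for LARS1 at every step. IARS1, the isoleucine enzyme, changed by 0.48 (SE 0.10, adjusted p = 0.012), a call lost without the rescued vehicle array (0.37, adjusted p = 0.083).

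Not all of the complex moved that way. Its arginine enzyme RARS1 (-0.23, SE 0.07, limma, Benjamini-Hochberg adjusted p = 0.04) and its scaffold AIMP1 (-0.25, SE 0.07, adjusted p = 0.03) fell, and its lysine enzyme KARS1 changed by -0.10 (adjusted p = 0.19). So 3 of the 6 measured complex members rose and 2 fell at 18 h (median 0.19), beside 4 that rose and 4 that fell among the 12 synthetases outside it (median 0.23). With so few genes both counts are near the 28.1% higher and 23.3% lower over all genes. Inside and outside the complex the medians were 0.23 and 0.42 in KO/eIF4B cells, and 0.10 and 0.01 in KO/LacZ cells. When single arrays were left out, RARS1 and AIMP1 kept their calls without the rescued 18 h array and lost them without any other (adjusted p up to 0.24 for both, without the knockout vehicle array).

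Among cytosolic members, each on its brightest probe set, the largest falls were in the phenylalanine enzyme. Its 2 subunits are encoded by FARSA (alpha) and FARSB (beta). On dimmer probe sets AIMP1 fell as far at 18 h (-0.72 and -0.69, beside -0.71 for FARSA). FARSA read 10.72, 10.63 and 10.01 in KO/LacZ cells (vehicle, 6 h, 18 h) and 10.56, 10.39 and 10.10 in KO/eIF4B cells. FARSB read 10.25, 10.35 and 9.62 in KO/LacZ cells and 10.18, 10.26 and 9.71 in KO/eIF4B cells. For both subunits the 18 h arrays lay below all 4 others. The changes at 18 h were -0.58 for FARSA (SE 0.09, limma, Benjamini-Hochberg adjusted p = 0.0052) and -0.55 for FARSB (SE 0.07, adjusted p = 0.0027).

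HARS1, the cytosolic histidine enzyme, read 10.86, 10.81 and 10.55 in KO/LacZ cells and 10.72, 10.72 and 10.48 in KO/eIF4B cells, a change of -0.28 at 18 h (SE 0.06, limma, Benjamini-Hochberg adjusted p = 0.014). VARS1, the valine enzyme, changed by -0.25 (SE 0.06, adjusted p = 0.02). Neither call held throughout: HARS1 lost its call without the knockout vehicle array (adjusted p = 0.14), the rescued vehicle array (0.076) or the knockout 18 h array (0.057), and VARS1 lost it without either vehicle array or either 18 h array (0.051 to 0.2).

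Of the cytosolic members that did not pass at 18 h, YARS1 for tyrosine changed by 0.35 (adjusted p = 0.06), GARS1 for glycine by 0.33 (adjusted p = 0.12), NARS1 for asparagine by 0.13 and TARS1 for threonine by -0.03 (limma, Benjamini-Hochberg). GARS1 read 11.74, 12.00 and 11.77 in KO/LacZ cells and 11.69, 12.36 and 12.33 in KO/eIF4B cells. Its knockout 18 h array was back at the vehicle level while the rescued 18 h array was not. By line GARS1 changed by 0.03 in KO/LacZ cells and 0.63 in KO/eIF4B cells. Without the knockout vehicle array the fitted change was 0.59, mostly that of the rescued line, which then held the only vehicle array. YARS1 changed by 0.11 in KO/LacZ cells and 0.58 in KO/eIF4B cells. Its fitted change was 0.50 without the knockout vehicle array and 0.54 without the knockout 18 h array. Each of these fits leaves 1 array at that treatment, from the rescued line. Of the 6 cytosolic genes with a TGATGNAA match, AARS1, CARS1 and IARS1 rose at 18 h, where 28.1% of all genes were called higher. GARS1, NARS1 and TARS1 did not pass. Among the other genes that rose, the windows of WARS1, SARS1 and EPRS1 held no match and LARS1 had no window. What part the motif has in these changes was not tested.

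**Figure D1:**
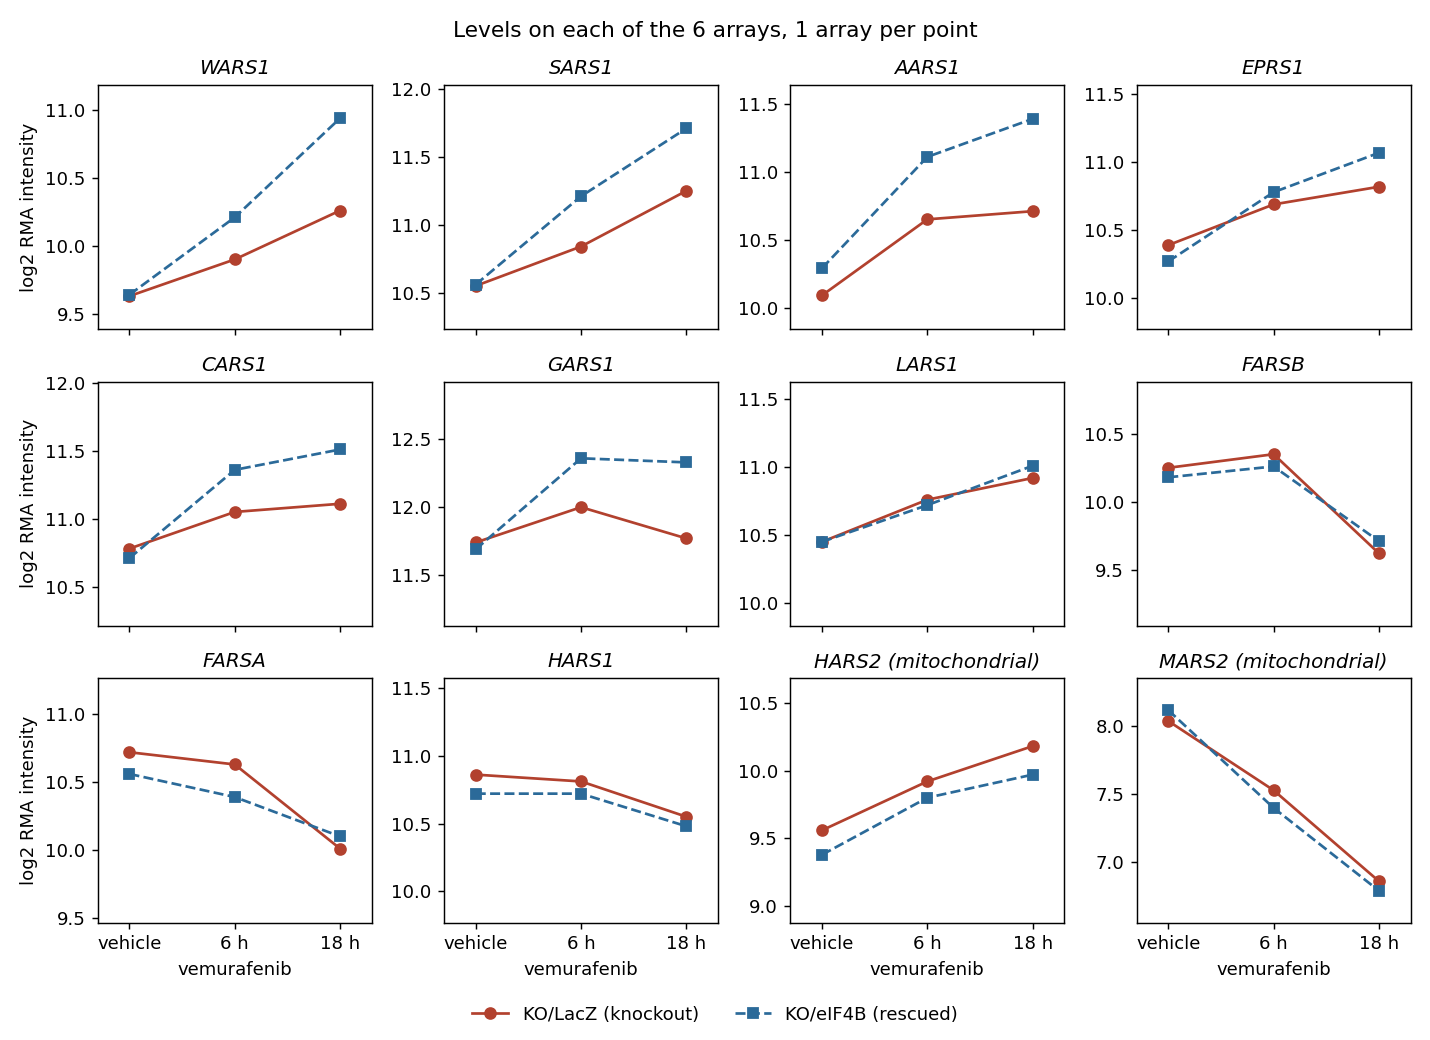
Level (log2 intensity, vertical axis, 1.8 units in every panel) of 12 synthetase genes under vehicle and after 6 h and 18 h of vemurafenib. Red circles with solid lines are KO/LacZ, blue squares with dashed lines KO/eIF4B, 1 array per point; WARS1 reached 10.26 in KO/LacZ and 10.94 in KO/eIF4B at 18 h, and MARS2 reached 6.86 in KO/LacZ and 6.79 in KO/eIF4B.

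At 6 h fewer members had passed. AARS1 (0.69, SE 0.12, adjusted p = 0.023) and LARS1 (0.29, SE 0.06, adjusted p = 0.042) rose among 18 cytosolic members and 0 fell (limma, Benjamini-Hochberg). An unadjusted limma p below 0.05 was found for 8 of 18, beside 4420 of all 13506 genes. Over all genes 7.34% were called higher and 8.82% lower at 6 h, so 2 of 18 is close to the background. The median change was 0.23, beside 0.03 over all genes. EPRS1 (0.41, adjusted p = 0.05), SARS1 (0.47, adjusted p = 0.057), CARS1 (0.46, adjusted p = 0.064) and GARS1 (0.47, adjusted p = 0.094) were on the other side of the threshold. The AARS1 call was lost without the knockout 6 h array (adjusted p = 0.096), the rescued vehicle array (0.11) or the rescued 6 h array (0.12), and LARS1 lost its call without any 1 of the vehicle and 6 h arrays of either line (0.14 to 0.26).

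MARS2, the mitochondrial methionine enzyme, had the largest change of all 33 members. It read 8.04, 7.53 and 6.86 in KO/LacZ cells (vehicle, 6 h, 18 h) and 8.12, 7.40 and 6.79 in KO/eIF4B cells. Each step was down in both lines, and the lines never differed by more than 0.13. The change was -0.62 at 6 h (SE 0.08, limma, Benjamini-Hochberg adjusted p = 0.0095) and -1.25 at 18 h (SE 0.08, adjusted p = 0.00036), a 2.38-fold fall at 18 h and number 251 from the bottom among 13506 genes. The 6 h call was lost without the rescued vehicle array (-0.52, adjusted p = 0.07) or the rescued 6 h array (-0.55, adjusted p = 0.065). The E-box CACGTG, the element bound by MYC and other factors of its class, was in the windows of MARS2, IARS1, CARS2, EARS2 and AIMP2. At 18 h IARS1 rose by 0.48, CARS2 (0.15) and EARS2 (-0.15) did not pass, and AIMP2 was not analysed. What part the E-box has in these changes was not tested. The MARS2 match, 11 bases before the start, is shown in capitals.
MARS2 (chr2:197705347-197705374, GRCh38.p14, plus strand): tgcgcctctcaCACGTGctgtcagaacg

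At 6 h 1 of the 15 mitochondrial members rose, HARS2, and 1 fell, MARS2, beside 7.34% and 8.82% of all genes. HARS2, the mitochondrial histidine enzyme, moved the other way. It read 9.56, 9.92 and 10.18 in KO/LacZ cells and 9.38, 9.80 and 9.97 in KO/eIF4B cells, so each step was up in both lines. The change was 0.39 at 6 h (SE 0.06, limma, Benjamini-Hochberg adjusted p = 0.017) and 0.61 at 18 h (SE 0.06, adjusted p = 0.0012). The 6 h call was lost without any 1 of the vehicle and 6 h arrays of either line (adjusted p = 0.072 to 0.14).

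HARS1 and HARS2 lie head to head on chromosome 5 and are transcribed away from each other, yet HARS1 fell and HARS2 rose at 18 h. The 84 bases between their annotated starts are shown because both genes begin at its ends (GRCh38.p14, plus strand, HARS2 direction).
HARS1-HARS2 (chr5:140691371-140691454): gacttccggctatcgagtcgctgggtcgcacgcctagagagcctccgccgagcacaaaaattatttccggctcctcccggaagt

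Of the 15 mitochondrial members HARS2, PARS2, FARS2 and IARS2 rose at 18 h, MARS2 fell, and 10 did not pass. With 28.1% of all genes higher and 23.3% lower, 4 of 15 is near the background and 1 of 15 below it. The median change was 0.00. PARS2, for proline, read 7.01, 7.20 and 7.35 in KO/LacZ cells and 6.67, 7.05 and 7.14 in KO/eIF4B cells (0.41, SE 0.07, limma, Benjamini-Hochberg adjusted p = 0.0068). Its call was lost without the rescued vehicle array (0.33, adjusted p = 0.07), which was the lowest of the 6.

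IARS2, for isoleucine, read 11.21, 11.32 and 11.48 in KO/LacZ cells and 11.11, 11.20 and 11.34 in KO/eIF4B cells (0.25, SE 0.06, limma, Benjamini-Hochberg adjusted p = 0.017). It lost the call without the knockout vehicle array (adjusted p = 0.15), the rescued vehicle array (0.12) or the knockout 18 h array (0.062). FARS2, the single-chain mitochondrial phenylalanine enzyme, read 7.78, 7.75 and 8.20 in KO/LacZ cells and 7.70, 7.78 and 7.89 in KO/eIF4B cells (0.31, SE 0.10, adjusted p = 0.046). Its 18 h change rested on the knockout 18 h array, without which it was 0.16 (adjusted p = 0.18), and the call was also lost without the knockout vehicle array (0.21) or the rescued vehicle array (0.13). The other 10 changed by -0.17 (WARS2 and YARS2) to 0.23 (VARS2).

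**Figure D2:**
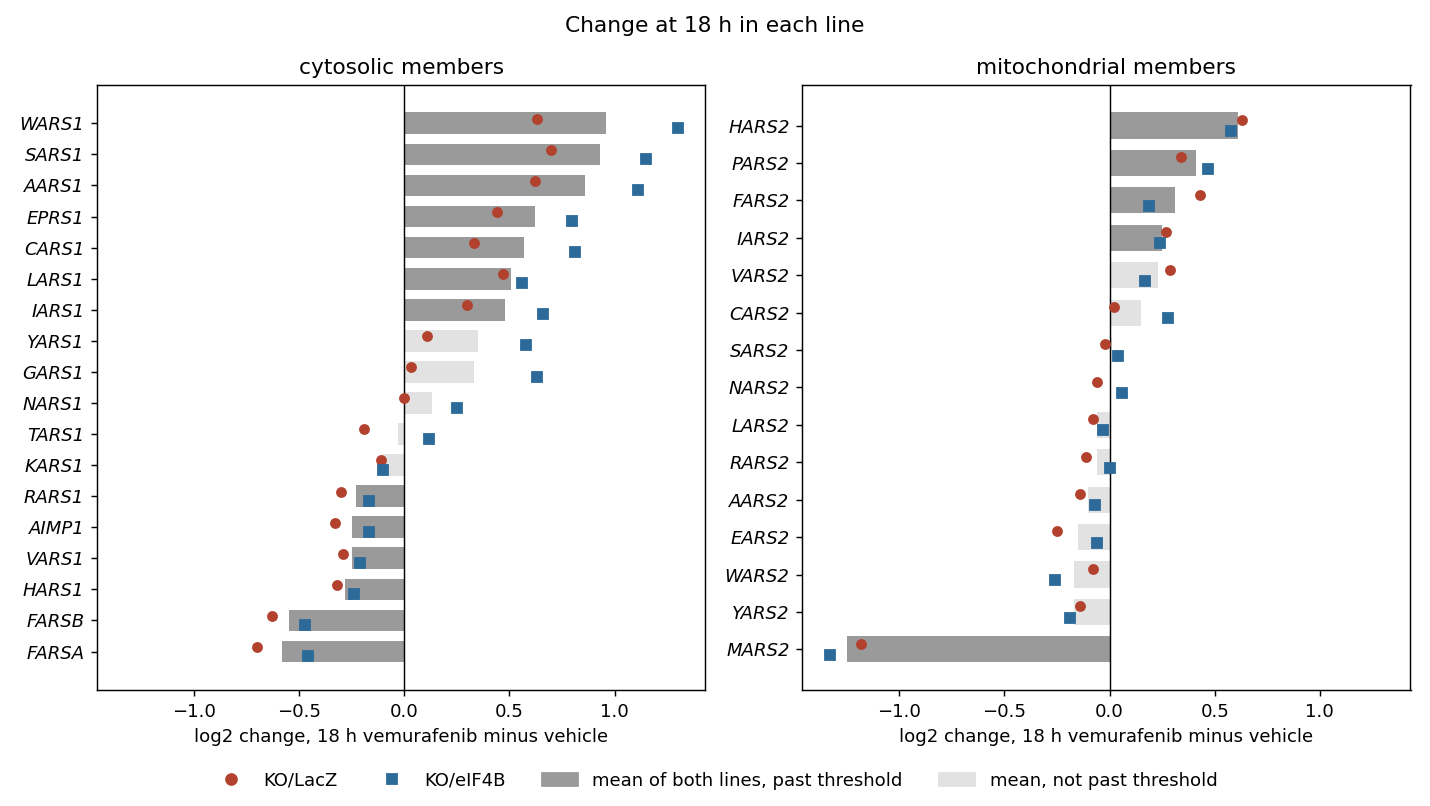
Change in level at 18 h of vemurafenib minus vehicle (log2 units) for 18 cytosolic members, left, and 15 mitochondrial members, right. Bars are the mean of both lines, dark where the gene passed the test and light where not; red circles are KO/LacZ and blue squares KO/eIF4B, and the bars run from 0.96 for WARS1 to -1.25 for MARS2.

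For 13 amino acids both the cytosolic and the mitochondrial gene were measured, FARSA standing for the cytosolic phenylalanine enzyme. The cytosolic gene had the higher change in 9 of 13 pairs at 6 h and in 9 of 13 at 18 h, comparisons that share their vehicle arrays. The 18 h differences, cytosolic change minus mitochondrial change, ran from -0.89 to 1.13 log2 units with a median of 0.42, and they were not tested. They were widest upward for tryptophan (WARS1 0.96, WARS2 -0.17), alanine (AARS1 0.86, AARS2 -0.10), serine (SARS1 0.93, SARS2 0.01) and glutamate (EPRS1 0.62, EARS2 -0.15). They were negative for phenylalanine (FARSA -0.58, FARS2 0.31), histidine (HARS1 -0.28, HARS2 0.61), valine (VARS1 -0.25, VARS2 0.23) and arginine (RARS1 -0.23, RARS2 -0.06).

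**Figure D3:**
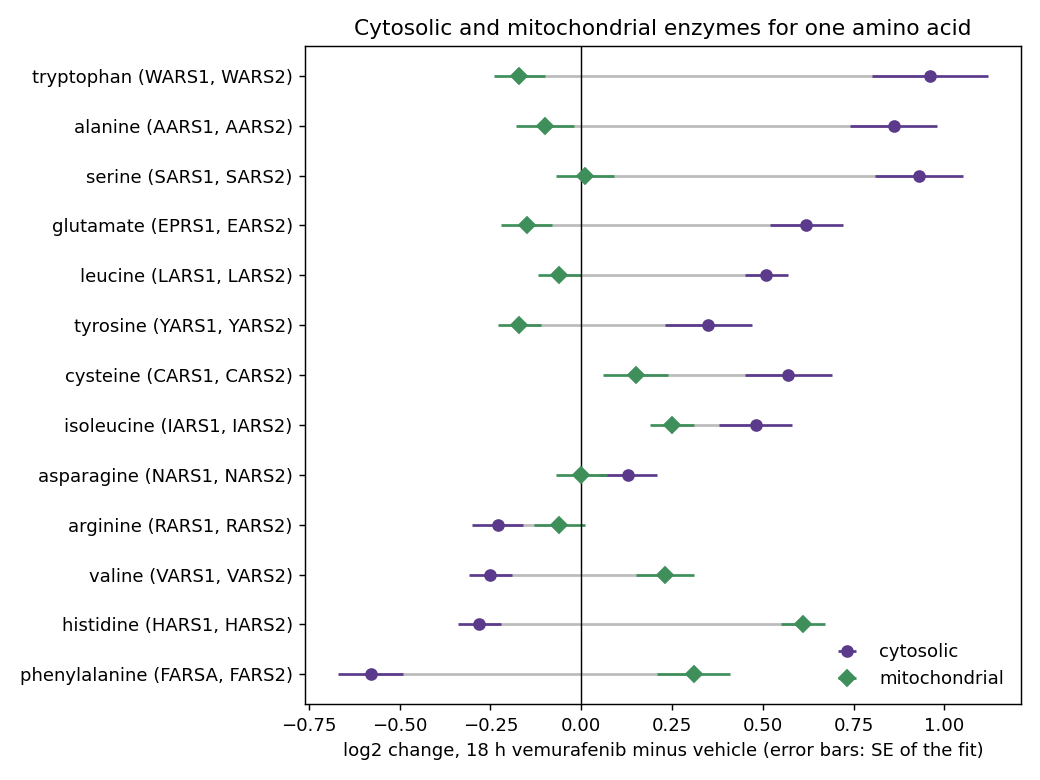
Change in level at 18 h of vemurafenib minus vehicle (log2 units, mean of both lines) of the cytosolic gene (purple circle) and the mitochondrial gene (green diamond) for 13 amino acids, with bars of 1 SE from the limma fit. The symbols are farthest apart for tryptophan (0.96 and -0.17) and lie in the opposite order for phenylalanine, histidine, valine and arginine.

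Between 6 h and 18 h of drug, WARS1 (0.55, SE 0.16, adjusted p = 0.049), SARS1 (0.46, SE 0.12, adjusted p = 0.038) and LARS1 (0.22, SE 0.06, adjusted p = 0.048) rose, and FARSB (-0.64, SE 0.07, adjusted p = 0.0048), FARSA (-0.46, SE 0.09, adjusted p = 0.02) and HARS1 (-0.25, SE 0.06, adjusted p = 0.029) fell (limma, Benjamini-Hochberg). Of the mitochondrial members 3 fell and 0 rose. An unadjusted limma p below 0.05 was found for 7 of 15, beside 6219 of all 13506 genes. Those that fell are given here. These were MARS2 (-0.64, adjusted p = 0.0051), EARS2 (-0.30, adjusted p = 0.033) and WARS2 (-0.26, adjusted p = 0.049). Over all genes 19.0% were higher and 14.9% lower at 18 h against 6 h, so the cytosolic counts and the 3 lower mitochondrial members are near the background and 0 of 15 higher is below it. With the mean of all its probe sets the SARS1 change turned to -0.02 (adjusted p = 0.94), its dimmer probe set changing by -0.49.

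EARS2, the mitochondrial glutamate enzyme, read 8.69, 8.84 and 8.45 in KO/LacZ cells (vehicle, 6 h, 18 h) and 8.58, 8.72 and 8.52 in KO/eIF4B cells. WARS2, the mitochondrial tryptophan enzyme, read 7.92, 8.0 and 7.84 in KO/LacZ cells and 7.95, 8.04 and 7.69 in KO/eIF4B cells. For both the 6 h arrays were the highest of their line and the 18 h arrays the lowest. FARSB and MARS2 kept their calls with each of the 6 arrays left out, HARS1 and LARS1 lost theirs with any 1 of the 6 left out (adjusted p = 0.057 to 0.14 and 0.073 to 0.21), and FARSA lost its call without the knockout 18 h array (-0.31, adjusted p = 0.067) or the knockout 6 h array (-0.35, adjusted p = 0.12). WARS1 lost its call without either 6 h array (0.15 and 0.17) or the rescued 18 h array (0.29, adjusted p = 0.15), and SARS1 without any 6 h or 18 h array (0.066 to 0.19). EARS2 kept its call without the rescued 18 h array alone (0.064 to 0.19 without the others). WARS2 kept its call without the knockout 18 h array alone (0.093 to 0.21 without the others), and without the rescued 18 h array it changed by -0.17.

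Between the knockout and the rescued line, over the 3 treatments, 0 of 33 members passed the test, beside 2.50% of all genes called (limma, Benjamini-Hochberg). An unadjusted limma p below 0.05 was found for 9 of 33 members, beside 3101 of all 13506 genes. With an intensity trend in the prior, AARS1 (-0.45, adjusted p = 0.02), CARS2 (0.28, adjusted p = 0.038) and HARS2 (0.17, adjusted p = 0.05) passed. In that setting 629 genes were higher and 540 lower over all 13506 genes. In the model without that trend the largest difference in each direction was -0.45 for AARS1 (SE 0.10, adjusted p = 0.088) and 0.28 for CARS2, the mitochondrial cysteine enzyme (SE 0.07, adjusted p = 0.11). The median difference was -0.04 in the cytosolic class and 0.05 in the mitochondrial class.

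The difference in level between the lines was also taken at each treatment, where it has no test. KO/LacZ minus KO/eIF4B was above 0 for 12 of 18 cytosolic genes under vehicle (median 0.07), for 7 of 18 at 6 h (median -0.05) and for 2 of 18 at 18 h (median -0.18). For mitochondrial genes it was above 0 for 11, 9 and 12 of 15 (medians 0.11, 0.05 and 0.07), and the medians over all genes lay between 0 and 0.01. The 3 steps share no arrays, but their changes share the vehicle arrays.

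Put as responses, the 18 h change was lower in the knockout line for 18 of 18 cytosolic genes, with differences of -0.67 to 0.00 after rounding and a median of -0.28, and for 8 of 15 mitochondrial genes with a median of -0.05. Over all genes tested 49.5% were lower. At 6 h it was lower for 14 of 18 cytosolic and 11 of 15 mitochondrial genes, and for 55.7% of all genes. WARS1 changed at 18 h by 0.63 in KO/LacZ cells and by 1.30 in KO/eIF4B cells, AARS1 by 0.62 in KO/LacZ and 1.11 in KO/eIF4B, SARS1 by 0.70 in KO/LacZ and 1.15 in KO/eIF4B, and GARS1 by 0.03 in KO/LacZ and 0.63 in KO/eIF4B. Genes that fell also entered the count: FARSA changed by -0.70 in KO/LacZ and -0.46 in KO/eIF4B.

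All of these differences in response share the 2 vehicle arrays, so genes are not independent in them, and at a single time there are no residual degrees of freedom to test them. A term shared by both times, with 1 residual degree of freedom, called 0 of 13506 genes (percent called 0; limma, Benjamini-Hochberg; 302 genes had an unadjusted p below 0.05, among them 3 cytosolic members). In it GARS1 differed by -0.51 (SE 0.16), WARS1 by -0.48 (SE 0.20), CARS1 by -0.42 (SE 0.15) and SARS1 by -0.41 (SE 0.14), each with an adjusted p of 1. With an intensity trend in the prior, 1 gene of the array passed as higher and 10 as lower.

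**Figure D4:**
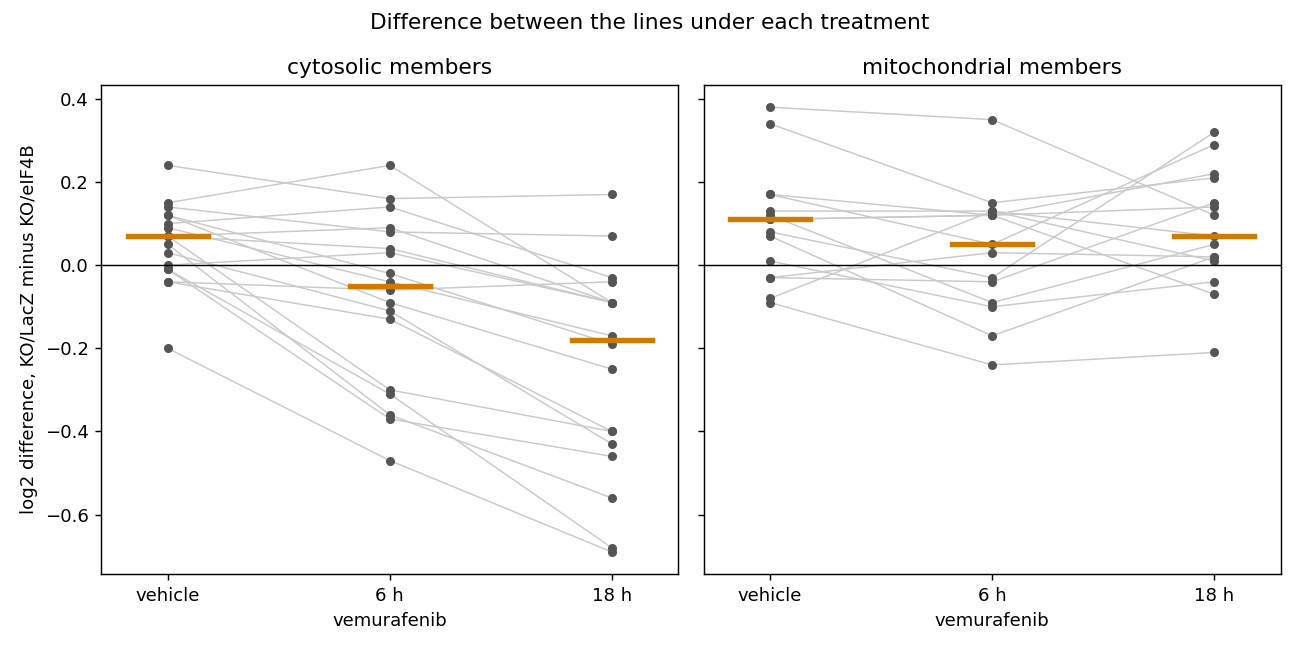
Level in KO/LacZ minus level in KO/eIF4B (log2 units) for each cytosolic and mitochondrial member under vehicle and after 6 h and 18 h of vemurafenib; each point is a gene and the orange bar the median of its class. The cytosolic median is 0.07 under vehicle, -0.05 at 6 h and -0.18 at 18 h, and the mitochondrial median 0.11, 0.05 and 0.07.

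ATF4 mRNA read 12.02, 12.43 and 12.26 in KO/LacZ cells (vehicle, 6 h, 18 h) and 11.71, 12.54 and 12.37 in KO/eIF4B cells. It rose at 6 h (0.62, adjusted p = 0.031) and at 18 h (0.45, adjusted p = 0.029; limma, Benjamini-Hochberg). Of 30 tested genes known as ATF4 targets outside the synthetase family, 12 rose and 1 fell at 6 h (median 0.67), beside 7.34% higher and 8.82% lower over all genes. At 18 h 14 rose and 2 fell (median 0.58), beside 28.1% higher and 23.3% lower. ASNS, which makes asparagine, rose by 2.07 at 18 h (SE 0.30, adjusted p = 0.0036), PCK2, mitochondrial PEP carboxykinase, by 2.11 (SE 0.28, adjusted p = 0.0028), and ALDH1L2, of mitochondrial folate metabolism, by 2.97 (SE 0.32, adjusted p = 0.0014). Their response was lower in the knockout line for 28 of 30 in the shared term (median -0.60), beside 7127 of all 13506 genes (median -0.01), with 0 called by limma and 19 at an unadjusted p below 0.05.

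Of 39 tested genes that make and process tRNA, 24 fell, 2 rose and 13 did not pass at 18 h (median -0.32), beside 23.3% lower and 28.1% higher over all genes. At 6 h 9 fell, 1 rose and 29 did not pass (median -0.07), beside 8.82% lower and 7.34% higher over all genes. The RNA polymerase III subunits POLR3K (-1.41, SE 0.06, adjusted p = 0.00021) and POLR3G (-1.21, SE 0.10, adjusted p = 0.00068) fell the most at 18 h, followed by the tRNA methyltransferase subunit TRMT6 (-1.03, SE 0.06, adjusted p = 0.00036; limma, Benjamini-Hochberg). MAF1, the repressor of that polymerase, rose by 0.22 (adjusted p = 0.027) and GTF3C3, a subunit of its factor TFIIIC, by 0.33 (adjusted p = 0.011).

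Other genes of tRNA charging and of translation were few, and most of their counts at 18 h were near the shares over all genes, 28.1% higher and 23.3% lower. Of 6 further charging genes 2 rose, among them SEPSECS of selenocysteine synthesis (0.55, adjusted p = 0.0094), and 2 fell. Of 6 cytosolic elongation genes 4 rose and 0 fell, led by EEF1A2 (0.84, adjusted p = 0.00097). Of 11 mitochondrial translation factors 2 rose, MTRFR and MTIF3, and 4 fell, led by the release factor MTRF1 (-0.91, adjusted p = 0.0044; limma, Benjamini-Hochberg).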

How the data were processed

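RNA of A375 cells was measured on 6 Affymetrix U133 Plus 2.0 arrays, 1 per line and treatment, grouped from the labels. The values the authors deposited are RMA intensities on a linear scale (3.01 to 19000); RMA and affy are named in the submitters' processing notes, without versions. Because RMA equalises the distributions of the arrays, these values cannot show whether total mRNA per cell changed. Log2 was taken first, since the planned tests were written for log2 values. Of 54675 probe sets 41091 carry 1 gene symbol; each of 19775 genes was represented by its probe set with the highest mean, and the 13506 whose mean reached 5 were tested. QARS1, AIMP2 and TARS2 had no single-symbol probe set. Fits used limma 3.58.1 in R 4.3.3 (line plus treatment, 2 residual degrees of freedom and 3.19 from the prior), Benjamini-Hochberg adjustment over all genes and a threshold of 0.05; the fit was tested on simulated data. The number of arrays limits the precision. Values on all arrays were given, per comparison and class, for up to 6 members with the largest positive and 3 with the largest negative change past the threshold, with EIF4B and ATF4 as checks and GARS1 added after its values were seen. The members and lists were chosen with earlier results of these data known. Alternatives were no filter, a filter at 6, the mean of all probe sets, median-centred arrays, an intensity trend, no line term and leaving out each array.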

Additional observations from a re-analysis of the deposited data

Results flagged for a closer look

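In 2 mitochondrial genes the lines moved in opposite directions at both times, which was not tested. The share of all genes that did so was not counted. RARS2, the arginine enzyme, changed by -0.049 at 6 h and -0.114 at 18 h in the knockout line and by 0.097 and 0.003 in the rescued line, a mean difference of -0.13. The next brightest RARS2 probe set did not show this. It read 8.37, 8.47 and 8.38 in KO/LacZ cells (vehicle, 6 h, 18 h) and 8.51, 8.64 and 8.56 in KO/eIF4B cells, above vehicle in both lines. SARS2, the serine enzyme, changed by -0.053 and -0.016 in the knockout line and by 0.193 and 0.037 in the rescued line, a mean difference of -0.15. Both differences are within 1 SE of the shared term for SARS2 (SE 0.16) and for RARS2 (SE 0.14).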

How the results depend on the processing

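At 18 h, 9 of the 18 called members kept their call with every array left out and under every other setting (WARS1, SARS1, AARS1, EPRS1, LARS1, FARSA, FARSB, HARS2 and MARS2); at 6 h 0 of 4 did, and at 18 h against 6 h 2 of 9 (FARSB and MARS2). Without the line term, calls at 6 h were 353 higher and 623 lower over all genes, 0 cytosolic and 0 mitochondrial members higher; 1 mitochondrial member was higher at 18 h; and at 18 h against 6 h 1506 genes were higher and 1221 lower, with 0 cytosolic members higher and 1 mitochondrial member lower. With no filter, 563 genes and 1 cytosolic member were higher at 6 h, 0 cytosolic members higher and 1 mitochondrial lower at 18 h against 6 h, and 33 genes higher and 25 lower in the knockout line. With the filter at 6, 5 cytosolic and 2 mitochondrial members were higher at 6 h, 2 mitochondrial lower at 18 h, 6 cytosolic lower and 1 mitochondrial higher at 18 h against 6 h, and 316 genes higher in the knockout line. With the mean of all probe sets, 2 mitochondrial members were higher at 6 h, 2 lower at 18 h, and 1 cytosolic member higher, 5 cytosolic lower and 1 mitochondrial higher at 18 h against 6 h, where SARS1 reversed to -0.02 (adjusted p = 0.94, limma). Median-centred arrays gave 2 mitochondrial members lower at 18 h and 1 cytosolic higher at 18 h against 6 h. An intensity trend gave 1520 genes and 8 cytosolic members higher at 6 h, 2 mitochondrial lower at 18 h, 7 cytosolic lower and 2 mitochondrial higher at 18 h against 6 h, 629 genes higher and 540 lower in the knockout line with 1 cytosolic member lower and 2 mitochondrial higher, and 1 gene higher and 10 lower in the shared term. The cause of these changes was not tested.

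With each array left out in turn, calls over all genes at 6 h were 163 to 1189 higher and 365 to 1341 lower, with 0 to 4 cytosolic members higher, 0 to 1 mitochondrial higher and 0 to 1 lower, and a cytosolic median of 0.12 to 0.30. At 18 h they were 2464 to 3610 higher and 1846 to 2953 lower, with 5 to 9 cytosolic members higher, 2 to 5 lower, 1 to 5 mitochondrial higher and 1 to 2 lower, and a cytosolic median of 0.06 to 0.38. At 18 h against 6 h they were 791 to 2467 higher and 644 to 1785 lower, with 0 to 2 cytosolic members higher, 1 to 4 lower, 0 to 1 mitochondrial higher and 1 to 2 lower, and a cytosolic median of -0.15 to 0.05. Between the lines they were 0 to 17 higher and 0 to 33 lower in the knockout line, beside 194 and 143 with all arrays. Leaving out an array leaves 1 array at that treatment, which is assumed to vary like the others. It also leaves fewer residual degrees of freedom than the 2 of the full fit, so a call can be lost with the change unaltered. At 18 h against 6 h without either vehicle array, HARS1 stayed at -0.25 and LARS1 at 0.22. The line term already pairs the treatments within each line, and the fit without it is given above. No paired analysis was possible beyond that, because the columns carry no replicate numbers and each combination has 1 array.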

Other observations

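For some members the probe sets of the gene disagreed at 18 h, and the choice was made by brightness. CARS1 had 3 probe sets that changed by 0.57, 0.58 and 0.67 and a dim one that changed by -0.59 (adjusted p = 0.0067 over all probe sets, limma), so the mean of all of them gave 0.31. AIMP1 changed by -0.25 on its brightest probe set and by -0.72 and -0.69 on the others. SARS1 changed by 0.93 and, on a dimmer probe set, by 0.55 (adjusted p = 0.15, limma). FARS2 changed by 0.31 on its brightest probe set and by 0.01 and -0.07 on the others, so its rise rests on 1 probe set. The probe sets of WARS1 (0.96 and 0.93), EPRS1 (0.62, 0.58 and 0.60) and FARSA (-0.58 and -0.71) moved alike.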
